A study of Arabidopsis thaliana with 3 samples.

Results

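Many genes of a compact plant genome overlap a neighbour, and the transcripts of such a pair were compared here wherever the deposited tables give both of them the same interval. Each table lists 33857 rows at 30747 distinct intervals, called loci, and the row identifiers run through every chromosome in 2 ascending series. A locus was taken when its interval occurred in exactly 2 rows, 1 in each series, on chromosomes 1 to 5. This gave 2168 loci, with 4336 rows, of 30499 distinct loci on those chromosomes. The 2 rows of a locus are called its first-series and its second-series partner. The rows left aside at shared intervals were those of 167 loci with both rows in 1 series and of 218 loci with at least 3 rows.

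The organs were leaf, silique (the fruit with its developing seeds) and inflorescence (the flowering shoot tip with buds and open flowers) of wild-type Arabidopsis thaliana, accession Col-0. All plants were 5.5 weeks old, had spent 2 weeks on MS medium before soil with 16 h of light, and had been bombarded at 3 weeks with uncoated gold particles of 0.6 µm, without any plasmid, 18 days before harvest. The treatment was shared by all organs, and no unbombarded plants were analysed here. Each organ gave 1 library of DNase-treated total RNA, sequenced with strand information per the series title, so differences between organs cannot be set against replicates, and neither errors nor p-values are given. Values are in FPKM, a fragment count divided by the length of the transcript and the size of the library, and the number of fragments behind them is unknown.

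Overlapping genes on opposite strands give transcripts that can pair with each other, and such natural antisense pairs are known in plants as a source of small interfering RNAs and as a setting in which RNA polymerases meet head-on. In Arabidopsis many pairs overlap only at their 3′ ends, while others consist of a protein-coding gene and a long noncoding RNA that covers it. The salt-responsive pair of SRO5 and the proline-degrading dehydrogenase gene ALDH12A1 and the clock-linked pair of CDF5 and FLORE are textbook examples.

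The tables give neither strand nor gene names, and the gene reference used for names (assembly TAIR10.1) has no strand column. A locus is therefore named by the reference genes inside it, and which row belongs to which gene is not given. Of the 2168 loci, 1288 (59.4%) held exactly 2 reference genes with at least 50% of their length inside, 559 held 3, 214 held 4 or more, 101 held 1 and 6 held none. Among the 1288 loci, 1006 (78.1%) held 2 protein-coding genes, 201 (15.6%) a protein-coding gene and a noncoding RNA gene, and 52 a protein-coding gene and a pseudogene. Noncoding RNA genes here include tRNA and microRNA genes as well as long noncoding RNA genes. Their 2 genes were staggered, overlapping in part, in 930 loci (72.2%), nested in 198 (15.4%) and apart in 160 (12.4%). The loci were spread evenly, making up between 6.57% of the loci of chromosome 3 and 7.39% of those of chromosome 1. They had a median width of 4089 bp, against 1821 bp for the 27946 rows alone at their locus.

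The organ labels were checked against marker genes, none of which was a member. The 6 leaf markers had a median of 2414 FPKM in leaf, 756 in silique and 272 in inflorescence, and the 7 flower markers 0.482, 3.94 and 203 FPKM in the same order. The 5 seed storage markers had a median of 20.5 FPKM in leaf, 3516 in silique and 8.85 in inflorescence. The 3 root markers lay between 0 and 0.210 FPKM in all libraries. The leaf, flower and seed lists were highest in leaf, inflorescence and silique, and there was no root library. The leaf markers also reached at least 128 FPKM in inflorescence.

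Rows of overlapping loci were expressed more widely than rows alone. Their median was 9.41 FPKM in leaf, 10.1 in silique and 9.68 in inflorescence, against 1.08, 3.06 and 3.05 FPKM for rows alone. Between 4.98% and 8.72% of the member rows were listed at 0 in a library, against 25.2% to 35.4% of the rows alone. First-series and second-series partners had like medians, 9.08 and 9.68 FPKM in leaf, 9.44 and 10.8 in silique, and 9.25 and 10.2 in inflorescence.

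Both partners of a locus were commonly detected together. At 1 FPKM or more, both were detected in 1364 loci (62.9%) in leaf, 1526 (70.4%) in silique and 1552 (71.6%) in inflorescence, and in 1247 loci (57.5%) in every library. Neither was detected in 163 loci in leaf, 113 in silique and 99 in inflorescence. As a measure of what adjacent genes do without overlap, neighbouring loci each alone at their interval were paired by the series of their rows. Both rows were detected in 30.2% of first-then-second pairs in leaf, 38.7% in silique and 40.8% in inflorescence, and in 31.2%, 39.8% and 40.6% of second-then-first pairs. The lower level of rows alone goes with these smaller shares, and its part in them was not tested. At the 167 loci with both rows in 1 series, both rows were detected in 78.4% in leaf, 70.7% in silique and 77.8% in inflorescence. Frequent joint detection was thus not particular to loci with a row in each series.

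A partner was called dominant when it was at least 4-fold above the other, as a ratio of FPKM + 1, with at least 5 FPKM. A locus with a partner at 5 FPKM or more and a smaller ratio was called balanced, and the rest low. In leaf the first-series partner dominated in 499 loci and the second-series partner in 528, with 763 balanced and 378 low. In silique the counts were 452, 481, 898 and 337, and in inflorescence 414, 457, 971 and 326. Neither series was favoured by much in any organ, and leaf had the most dominated and the fewest balanced loci. Of the loci that were not low, a partner dominated in 57.4% in leaf (1027 of 1790), 51.0% in silique (933 of 1831) and 47.3% in inflorescence (871 of 1842). Among neighbouring pairs the shares were higher in each organ: 73.8%, 68.6% and 65.7% for first-then-second pairs, 71.6%, 65.1% and 62.8% for second-then-first pairs, and 70.7%, 65.5% and 63.3% for pairs of 1 series, in leaf, silique and inflorescence. The order of the organs was the same in all 4 kinds of pair. In leaf the lower row of a dominated pair was listed at 0 in 40.2% of first-then-second neighbours, against 14.3% of overlapping loci. The lower level of rows alone goes with their larger shares of dominated pairs, and its part in them was not tested. In these bulk samples, fewer cells of a type and less RNA per cell cannot be told apart.

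**Figure D1:**
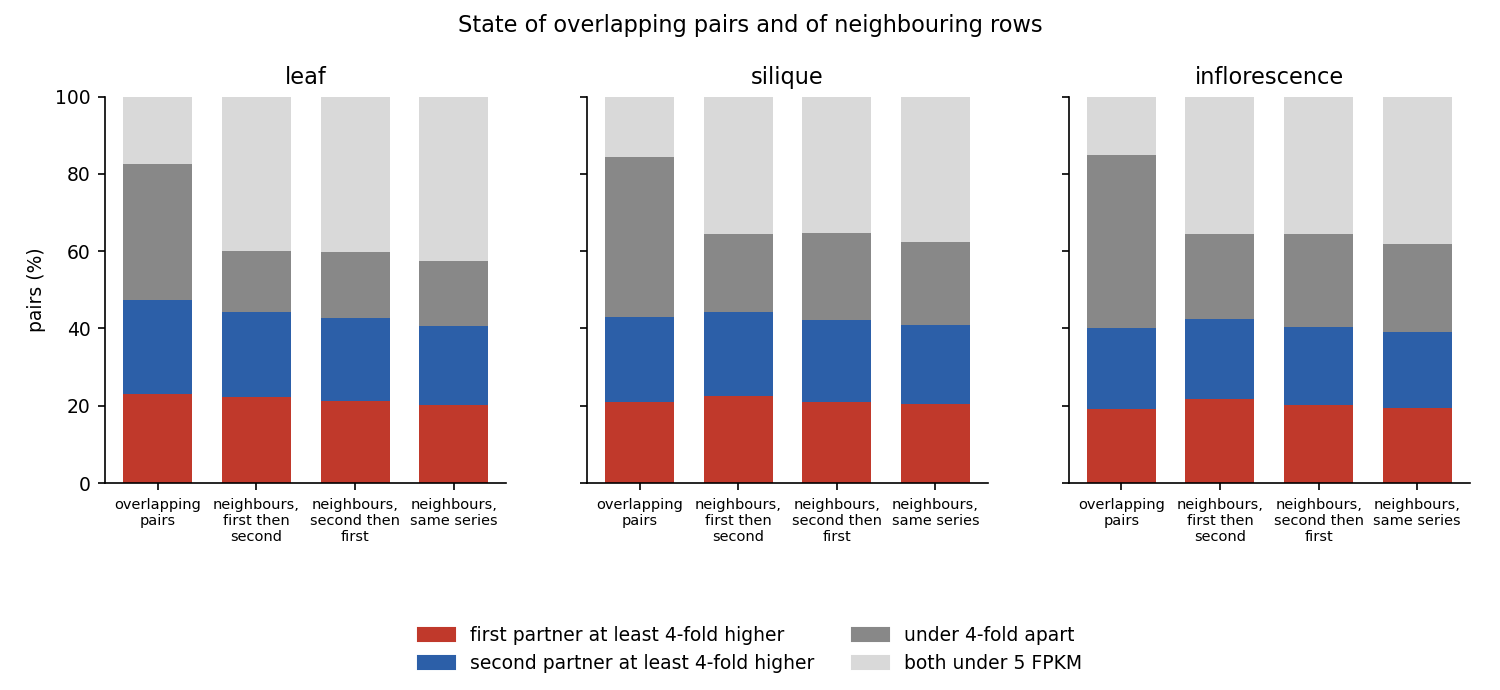
Share of pairs (%) in each state, by organ, for the 2168 overlapping pairs and for 3 sets of neighbouring rows each alone at its interval; each bar sums to 100% and each organ is 1 library. Overlapping pairs hold the largest grey share of pairs under 4-fold apart, 35.2% in leaf, 41.4% in silique and 44.8% in inflorescence. The neighbouring rows had lower levels than the overlapping rows, and the part of level in these shares was not tested.

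The lower partner of a dominated locus was often still present. Its median was 1.08 FPKM in leaf, beside 36.4 FPKM for the dominant partner, 1.82 beside 36.1 FPKM in silique, and 1.44 beside 30.7 FPKM in inflorescence. It reached 1 FPKM in 526 of the 1027 dominated loci (51.2%) in leaf, 554 of 933 (59.4%) in silique and 488 of 871 (56.0%) in inflorescence. It was listed at 0 in 147, 124 and 91 of them. Its median share of the summed FPKM of the pair was 3.28% in leaf, 4.68% in silique and 4.65% in inflorescence.

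**Figure D2:**
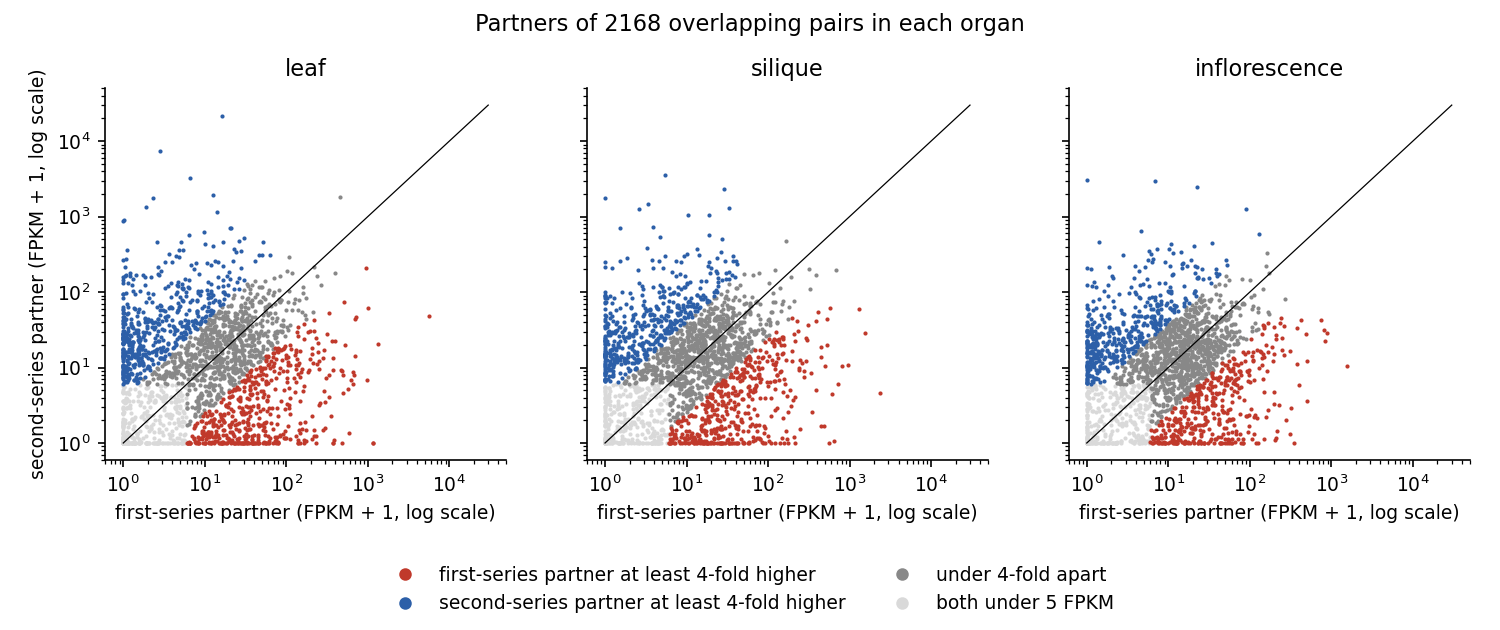
FPKM + 1 of the first-series partner (x axis, log scale) against the second-series partner (y axis, log scale) in each organ, 1 point per overlapping locus and 1 library per organ, with the line of equal values. Points spread evenly to both sides of the line, with 499 loci dominated by the first-series and 528 by the second-series partner in leaf.

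The most abundant partners stood beside a far lower one. The highest value of any member row was in the locus of MT3, a metallothionein gene, and COX17, a mitochondrial copper chaperone gene (chromosome 3, 5179413 to 5181586, with 2 further noncoding genes). There the second-series partner had 21690 FPKM in leaf, 1310 in silique and 2454 in inflorescence, and the first-series partner 15.2, 32.5 and 21.6 FPKM. The locus of MT2B, another metallothionein gene, and AT5G02370 had 7495 FPKM in leaf, 3605 in silique and 2991 in inflorescence for the second-series partner, against 1.86, 4.51 and 5.85 FPKM for the first. In neither locus did the lower partner follow the organ order of the higher one.

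The locus of PSBR, a photosystem II subunit gene, and RECA1, a plastid recombinase gene, also held an antisense RNA gene. Its first-series partner had 5604 FPKM in leaf, 1530 in silique and 842 in inflorescence, and its second-series partner 46.5, 27.7 and 21.2 FPKM. The locus of LHB1B2, a light-harvesting chlorophyll-binding protein gene, and RWA3, a cell wall acetylation gene, also held a long noncoding RNA gene. Its second-series partner had 1934 FPKM in leaf, 2301 in silique and 205 in inflorescence, and its first-series partner 11.6, 28.1 and 13.9. The locus of the vegetative storage protein genes VSP1 and VSP2 also held a pseudogene, AT5G24775. Its second-series partner had 871 FPKM in leaf, 1771 in silique and 3040 in inflorescence, while its first-series partner was listed at 0 in all 3. Which of these genes belongs to the row at 0 is not given.

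Over all loci with a partner of at least 500 FPKM, the other partner had a median of 0.950% of the higher one in leaf (33 loci), 0.973% in silique (26 loci) and 2.36% in inflorescence (12 loci). It was under 1% of the higher one in 17, 13 and 5 of these loci. In FPKM the other partner had a median of 8.71 in leaf, 9.50 in silique and 21.4 in inflorescence. Over all member rows the medians were 9.41, 10.1 and 9.68 FPKM, so the median of the other partner was near or above that of member rows. It was nevertheless under 1 FPKM in 6, 4 and 1 of these loci. The share ranged widely, between 0% and 25.1% in leaf, so a high value on 1 row had no fixed share on the other.

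A partner without any signal was uncommon. The first-series partner was listed at 0 in all 3 libraries in 76 loci and the second-series partner in 73, and both were in 19. The locus of APE2, the chloroplast triose phosphate translocator gene, with a tRNA gene nested in it, had 1170 FPKM in leaf, 553 in silique and 349 in inflorescence for the first-series partner, with the other listed at 0 throughout. The locus of THIC, a thiamine biosynthesis gene, and AT2G29628 had 1170, 175 and 77.1 FPKM in the same order for the first-series partner, and 0 for the second.

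The state of a locus was mostly shared by the organs. In 1299 of 2168 loci (59.9%) it was the same in all 3: the same partner dominated in 573 (26.4%), of which 275 by the first and 298 by the second series, 532 (24.5%) were balanced throughout and 194 (8.95%) low throughout. No like share of neighbouring pairs is given for comparison. Of the 869 loci whose state differed, leaf stood apart from a state shared by the other two organs in 373, silique in 209 and inflorescence in 229. A partner dominated in leaf with both other organs balanced in 180 loci, against 53 for silique alone and 37 for inflorescence alone. Loci balanced in 1 organ alone, with the same partner dominating in the other two, were most frequent for inflorescence, with 114, against 86 for leaf and 71 for silique. Balanced loci were wider, with a median of 4775 bp, than loci with the same dominant partner throughout (3971 bp) and loci low throughout (2486 bp).

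The partner ratio varied less between silique and inflorescence than between either and leaf. Among loci with a partner of at least 5 FPKM in both organs, the ratio differed at least 4-fold in 349 of 1707 (20.4%) between leaf and inflorescence, 178 of 1748 (10.2%) between silique and inflorescence, and 309 of 1703 (18.1%) between leaf and silique. Across loci, the log2 ratios of 2 organs had a Pearson r of 0.843, 0.889 and 0.845 in the same order, over loci that share the same libraries. The higher partner changed, at any size of ratio, in 14.9%, 11.8% and 15.1% of these loci.

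Balanced loci with high values on both rows were led by RAB1A, a small GTPase gene of vesicle traffic, with AT5G47210. The first-series partner had 102 FPKM in leaf, 192 in silique and 156 in inflorescence, and the second-series partner 190, 155 and 221 FPKM. The locus of GRF1, a 14-3-3 protein gene, and TL29, a thylakoid lumen protein gene, also held further noncoding genes. It had 391, 328 and 271 FPKM for the first and 180, 109 and 79.7 FPKM for the second partner, in leaf, silique and inflorescence. In the first of these loci the higher partner differed between organs, and in the second it was the same in all.

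The other 3 of the 5 highest balanced loci were those of YKT61 (a SNARE gene) with TIL (a lipocalin gene), of AT5G42090 with the noncoding AT5G42092, and of AT2G43550 with AT2G43560. The first-series partner of the YKT61 locus had 82.0 FPKM in leaf, 121 in silique and 72.1 in inflorescence, and the second-series partner 163, 194 and 60.7. The partners of the AT5G42090 locus had 86.3 and 78.6 FPKM in leaf, 138 and 113 in silique, and 82.1 and 69.5 in inflorescence. Silique was the highest organ on both rows of that locus.

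Dominance switched between organs in 29 loci, meaning that the first-series partner dominated in 1 organ and the second-series partner in another. That is 3.13% of the 926 loci with a dominant partner in at least 2 organs, and 1.34% of all 2168. No share of switches among neighbouring pairs is given, so whether switches are rarer or more frequent at overlapping loci is not known. By organ pair, the switch was between leaf and inflorescence in 12 of 676 loci dominated in both, between silique and inflorescence in 10 of 699, and between leaf and silique in 16 of 715. Silique stood against both other organs in 6 of the 29 loci, inflorescence in 2 and leaf in 1. Both partners differed at least 4-fold between the organs of opposite dominance in 10 loci and 1 partner in 19. In 22 of the 29 loci, 2 protein-coding genes were the whole gene content, as they were in 1006 of all 2168 loci. These 22 were all the switching loci of exactly 2 reference genes. Of the 1288 member loci of exactly 2, 1006 (78.1%) held 2 protein-coding genes.

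**Figure D3:**
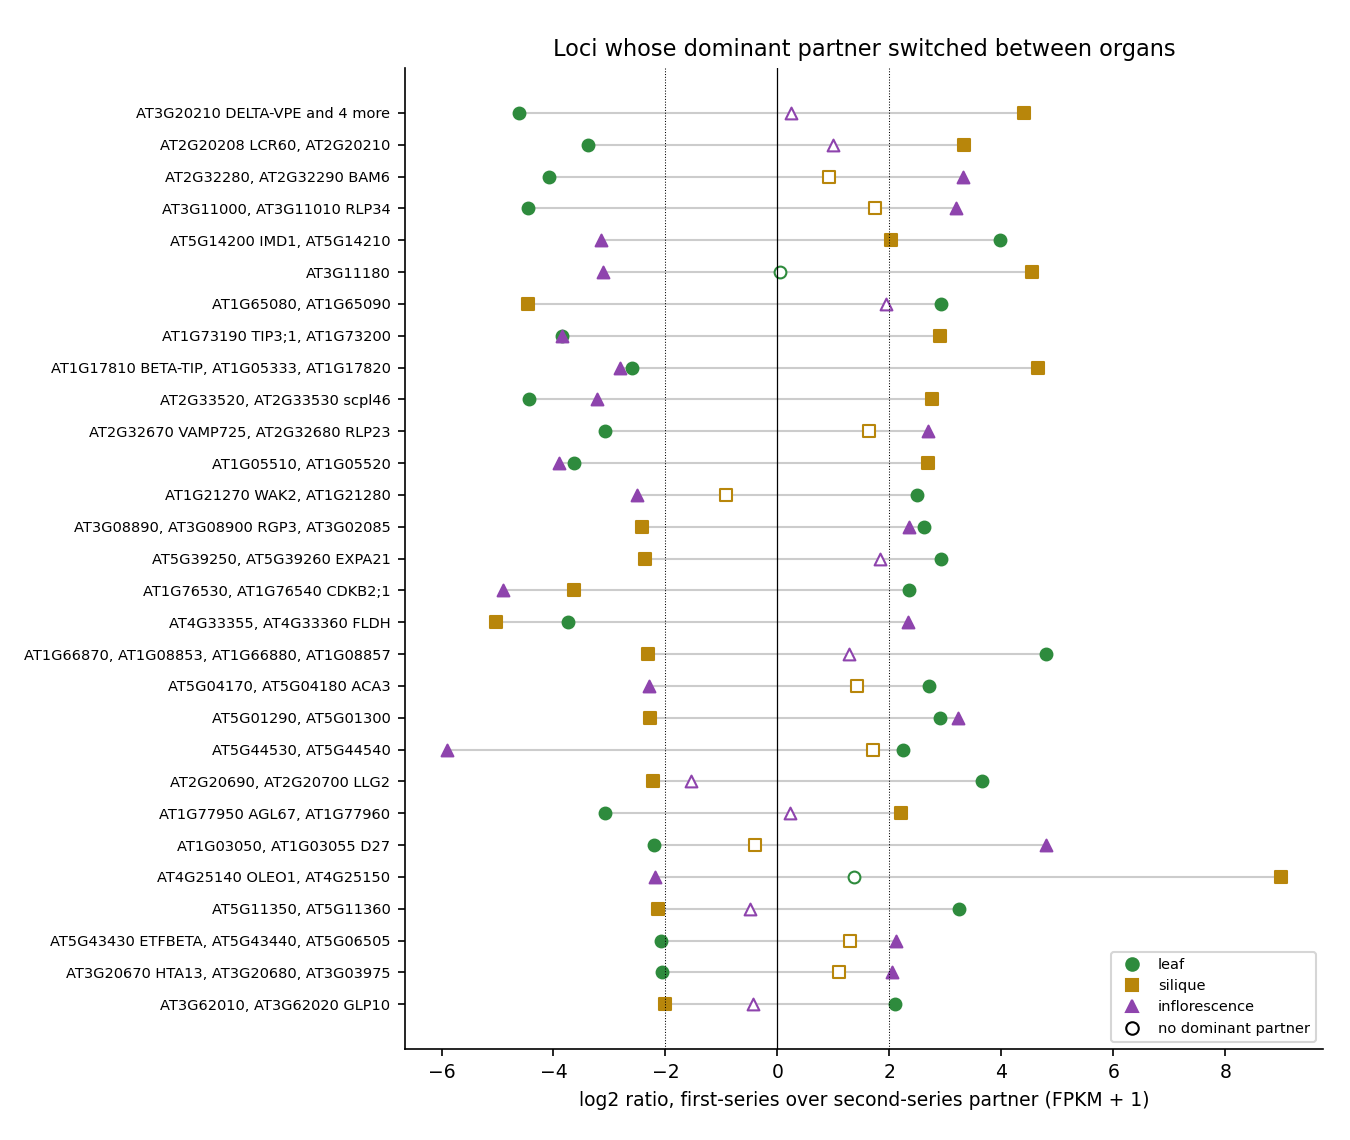
Log2 ratio of first-series over second-series partner (FPKM + 1) in leaf, silique and inflorescence for the 29 loci with a switch, named by their reference genes in order of the size of the switch; open symbols mark organs without a dominant partner and dotted lines the 4-fold limits. The upper rows cross zero furthest, and the OLEO1 locus reaches the highest ratio, in silique.

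The largest switch of all was in the locus of DELTA-VPE, a vacuolar processing enzyme gene of the seed coat, with 4 further genes (chromosome 3, 7052382 to 7056758). Its first-series partner had 4.26 FPKM in leaf, 1286 in silique and 102 in inflorescence, and its second-series partner 127, 59.5 and 86.2 FPKM. The second-series partner dominated in leaf, the first-series partner in silique, and inflorescence was balanced.

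In the locus of TIP3;1, a tonoplast aquaporin gene of seeds, and AT1G73200 (chromosome 1, 27521944 to 27526718), the first-series partner had 0.606 FPKM in leaf, 209 in silique and 0.145 in inflorescence, and the second-series partner 22.1, 27.1 and 15.5. The locus of the related aquaporin gene BETA-TIP with AT1G17820 and a noncoding gene had 0.766, 237 and 0.336 FPKM for the first and 9.65, 8.39 and 8.34 FPKM for the second partner, in leaf, silique and inflorescence. The locus of AT1G05510 and AT1G05520 had 0.606, 154 and 0.338 FPKM for the first and 19.0, 22.9 and 19.1 FPKM for the second. In all 3 loci the second-series partner dominated in leaf and in inflorescence and the first in silique, while the second partner differed less than 2-fold between organs.

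The locus of OLEO1, an oil body protein gene of seeds, and AT4G25150 (chromosome 4, 12900430 to 12903125) had the highest silique value after MT2B among the overlapping loci. Its first-series partner had 6.62 FPKM in leaf, 2372 in silique and 3.10 in inflorescence, and its second-series partner 1.94, 3.64 and 17.7 FPKM. Here the second-series partner was highest in inflorescence and dominated there, so both rows of the locus took part. The seed markers above show the same library order, and the part of seed content in these values was not tested.

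**Figure D4:**
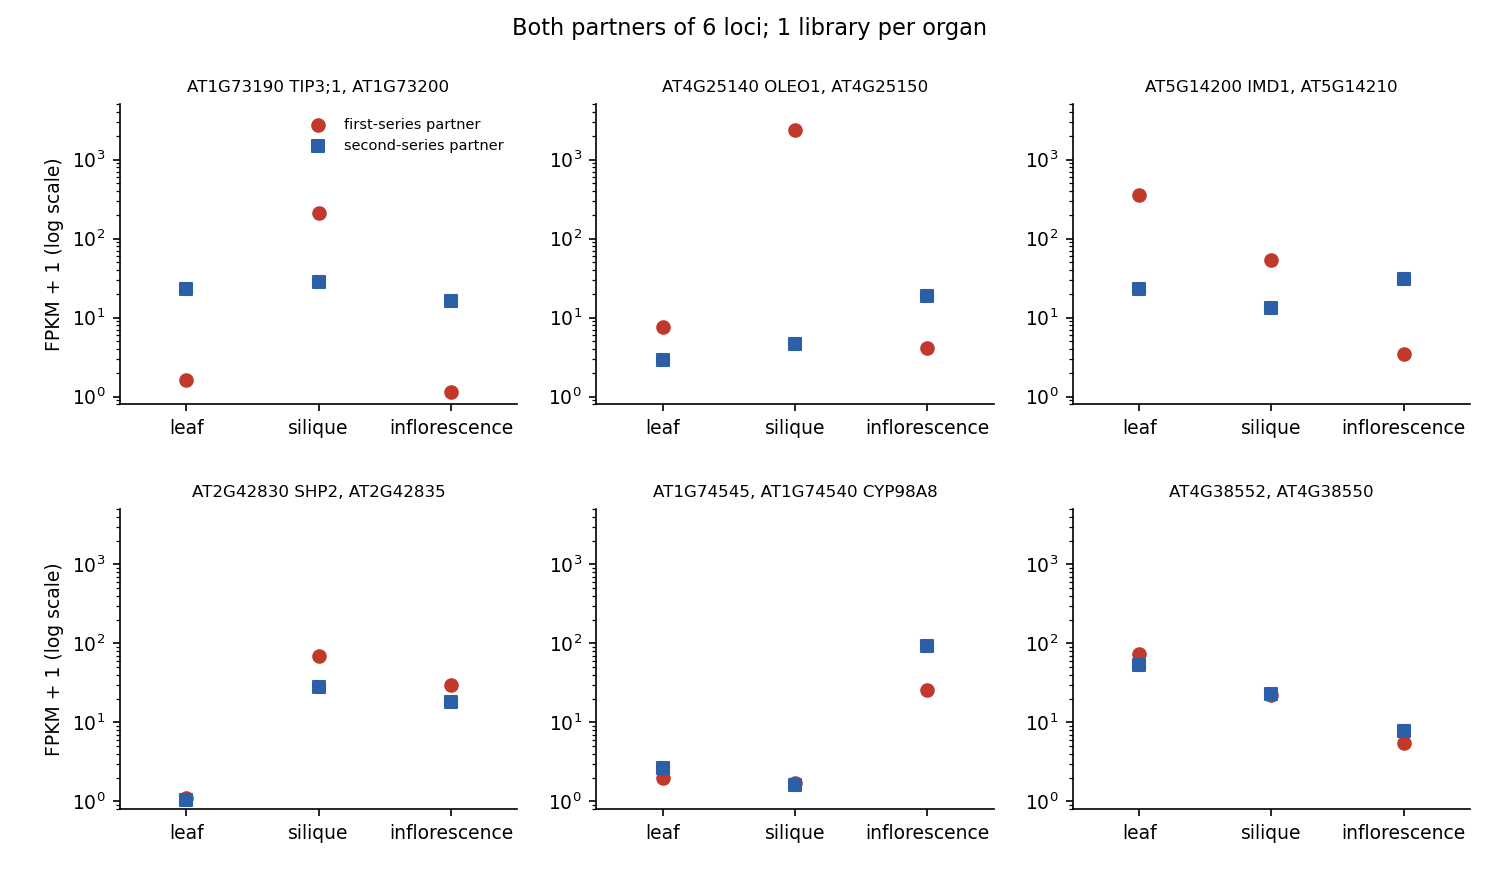
FPKM + 1 (log scale) of the first-series (circles) and second-series (squares) partner in leaf, silique and inflorescence at 6 loci, named by their reference genes; each point is 1 library. The upper row shows 3 loci with a switch, and the lower row 3 loci of a protein-coding and a noncoding gene, where both partners lie high in the same organ.

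The locus of IMD1, an isopropylmalate dehydrogenase gene of leucine and glucosinolate synthesis, and AT5G14210 (chromosome 5, 4576202 to 4581374) had 358 FPKM in leaf, 52.4 in silique and 2.45 in inflorescence for the first-series partner, and 21.7, 12.1 and 29.6 FPKM for the second. The locus of BAM6, a beta-amylase family gene, and AT2G32280 (chromosome 2, 13713021 to 13716929) had 2.72, 12.8 and 20.4 FPKM for the first and 62.1, 6.25 and 1.16 FPKM for the second partner. The 2 rows of the BAM6 locus ran in opposite order through the organs, and the first-series row of the IMD1 locus was highest in leaf.

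The locus of RLP34, a receptor-like protein gene, and AT3G11000 had 0.441 FPKM in leaf, 12.03 in silique and 35.7 in inflorescence for the first-series partner, and 30.6, 2.89 and 3.00 FPKM for the second. The locus of RLP23, whose product recognises a microbial peptide, and VAMP725, a vesicle SNARE gene, had 0.564, 2.98 and 6.43 FPKM for the first and 12.2, 0.279 and 0.149 FPKM for the second. The locus of WAK2, a wall-associated kinase gene, with AT1G21280 nested in it, had 43.6, 5.55 and 1.08 FPKM for the first and 6.90, 11.4 and 10.8 FPKM for the second. In each of the first pair of loci, the second-series partner dominated in leaf and the first in inflorescence, and at the WAK2 locus the reverse held.

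The rest of the 10 largest switches at loci of exactly 2 genes were at LCR60 (a defensin-like gene) with AT2G20210, at AT1G65080 with AT1G65090, and at scpl46 (a serine carboxypeptidase-like gene) with AT2G33520. The LCR60 locus had 0 FPKM in leaf, 55.2 in silique and 9.34 in inflorescence for the first-series partner, and 9.40, 4.56 and 4.19 FPKM for the second. The AT1G65080 locus had 8.39, 3.55 and 3.54 FPKM for the first and 0.233, 99.3 and 0.180 FPKM for the second partner. The scpl46 locus had 0.899, 44.2 and 0.239 FPKM for the first and 40.1, 5.69 and 10.6 FPKM for the second. In all 3 loci silique held the highest value of the partner that dominated there.

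Other switching loci, named after their values were seen, included those of CDKB2;1 and AT5G44530. At the locus of CDKB2;1, a mitotic cyclin-dependent kinase gene, and AT1G76530, the first-series partner had 19.4 FPKM in leaf, 0.501 in silique and 0.124 in inflorescence, and the second-series partner 3.02, 17.5 and 32.5 FPKM. The locus of AT5G44530 and AT5G44540 had on its second-series row 4.22 FPKM in leaf, 0.542 in silique and 351 in inflorescence, and on its first-series row 23.7, 4.04 and 4.86 FPKM. Each had opposite dominant partners in leaf and in inflorescence. The other loci with a switch are drawn in the plot of log2 ratios by organ.

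Single rows of overlapping loci changed between organs no more often than rows of the tables at large. Of the rows with at least 5 FPKM in either organ, 225 of 3055 (7.36%) were at least 4-fold higher in leaf than in inflorescence and 267 (8.74%) lower, against 8.11% and 12.1% of all rows. Between silique and inflorescence, 144 of 3059 (4.71%) were higher in silique and 111 (3.63%) lower, against 7.26% and 5.52% of all rows. Between leaf and silique, 146 of 3049 (4.79%) were higher in leaf and 254 (8.33%) lower, against 5.94% and 12.2%. Every share was below that of all rows. The split by direction depended on the settings: 45.7% of the changed rows were higher in leaf than in inflorescence, but 55.0% at 2-fold, 54.4% with a pseudocount of 5 and 57.4% with a minimum of 20 FPKM. Against silique, 36.5% were higher in leaf, but 52.1% at 2-fold.

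Changes of both partners together were rare. With both partners at 5 FPKM or more in either organ, 31 of 1130 loci (2.74%) differed at least 4-fold the same way between leaf and inflorescence, 14 of them higher in leaf and 17 higher in inflorescence. The share was 3.27% of first-then-second and 2.91% of second-then-first neighbours, and 5.1% of neighbours of 1 series. Opposite changes were seen in 18 loci (1.59%), against 2.37%, 1.7% and 1.36% of the 3 sets of neighbours. Joint and opposite changes thus lay near the shares of neighbouring pairs in opposite series.

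Between silique and inflorescence, 13 of 1134 loci (1.15%) changed jointly, against 1.09%, 1.56% and 3.66% of the 3 neighbour sets, and 2 (0.176%) oppositely, against 0.664%, 0.347% and 1%. Between leaf and silique, 25 of 1131 (2.21%) changed jointly, against 2.84%, 2.92% and 5%, and 9 (0.796%) oppositely, against 0.774%, 1.04% and 1.08%. Over any organ pair, 45 loci changed jointly and 26 oppositely. Across loci the log2 changes of the 2 partners had a Pearson r of 0.131 between leaf and inflorescence, 0.152 between silique and inflorescence and 0.103 between leaf and silique, over loci that share the same libraries.

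The largest opposite changes repeated the switching loci, with CDKB2;1, RLP34 and D27 (a carotenoid isomerase gene of strigolactone synthesis) at the head between leaf and inflorescence. At the D27 locus, shared with AT1G03050, the first-series partner had 1.94 FPKM in leaf, 4.65 in silique and 55.3 in inflorescence, and the second-series partner 12.5, 6.43 and 1.03. The locus of PIL5, a phytochrome-interacting factor gene of seed germination, and AT2G20170 changed oppositely between leaf and silique without a switch. Its first-series partner had 0 FPKM in leaf, 5.26 in silique and 0 in inflorescence, and its second-series partner 27.3, 3.33 and 9.65 FPKM.

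The low correlation over all loci hid a split by gene content, which was chosen after values were seen. At loci of a protein-coding and a noncoding RNA gene, the partners' log2 changes had a Pearson r of 0.843 between leaf and inflorescence (53 loci), 0.803 between silique and inflorescence (52) and 0.794 between leaf and silique (56). At loci of 2 protein-coding genes the values were 0.0437 (573 loci), 0.0257 (591) and 0.0119 (562). The partners moved the same way in 48 of 53, 43 of 52 and 50 of 56 loci with a noncoding gene, and in 302 of 573, 299 of 591 and 291 of 562 loci with 2 protein-coding genes. At loci of 1 reference gene r was 0.627, 0.498 and 0.431 (21, 17 and 26 loci). With 3 or more reference genes it was -0.00273, 0.102 and -0.00112 (475, 466 and 479 loci). At the loci with both rows in 1 series it was 0.793, 0.320 and 0.667 (114, 101 and 113 loci). Partners changing together were thus not particular to loci with a noncoding gene. The organ pairs share libraries, so these values are 3 views of 1 data set.

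The split remained when loci with large changes were left out, though r at loci with a noncoding gene was lower in 1 of the 2 ways used. The 2 loci whose first-series change lay farthest from the median were left out, without regard to the second-series change. At loci with a noncoding gene r was then 0.799, 0.663 and 0.726 in the same order. Over loci in which neither partner differed 4-fold it was 0.876, 0.780 and 0.843. Joint 4-fold changes in any organ pair were seen in 11 of 64 such loci (17.2%) and opposite ones in none, against 15 joint and 15 opposite among 633 loci of 2 protein-coding genes (2.37% each). With a minimum of 1 FPKM, r was 0.771, 0.745 and 0.664 at loci with a noncoding gene (113, 110 and 112 loci). At loci of 2 protein-coding genes it was then 0.0484, 0.0417 and 0.0211. All of these are descriptions of 3 libraries.

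Gene content goes with how far the genes overlap. The shorter gene lay in the other over a median of 100% of its length at tested loci with a noncoding gene, between leaf and inflorescence, and 4.26% at loci of 2 protein-coding genes. Under 50% overlap of the shorter gene, r at loci with a noncoding gene was 0.581, -0.631 and 0.163, on 6 loci each. With overlap restricted to at least 50% of the shorter gene, r was 0.898, 0.890 and 0.895 at loci with a noncoding gene (47, 46 and 50 loci). At loci of 2 protein-coding genes it was then 0.495, 0.420 and 0.255 (41, 39 and 36 loci). Without the 2 loci farthest by their first-series change it was 0.319, 0.386 and -0.0570. The 3 correlations of protein-coding pairs were thus larger with deep overlap, but on few loci and not under every setting. Over the deeply overlapping loci in which neither partner differed 4-fold, r was 0.189, 0.458 and -0.0962 (23, 25 and 22 loci). At nested loci of 2 protein-coding genes r was 0.455, 0.402 and 0.138 (30, 27 and 23 loci). With 2 loci left out in the same way it was 0.190, -0.0104 and -0.0758.

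**Figure D5:**
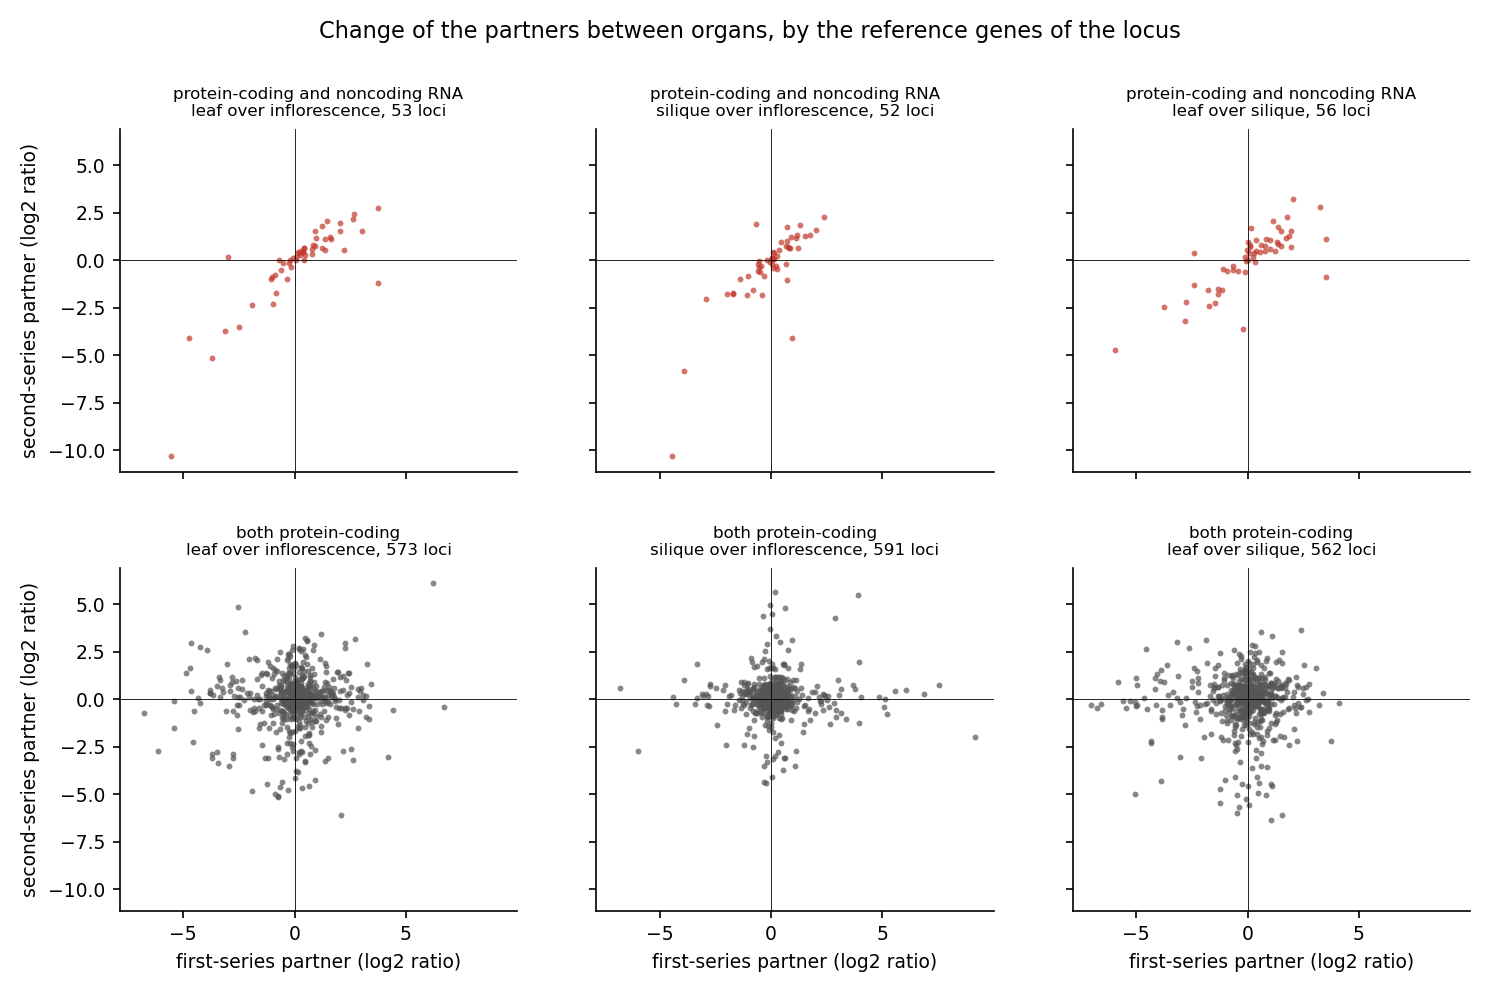
Log2 ratio of FPKM + 1 between organs for the first-series partner (x axis) and the second-series partner (y axis), 1 point per locus with both partners at 5 FPKM or more in either organ. Loci of a protein-coding and a noncoding RNA gene (upper row, r from 0.794 to 0.843) lie along the diagonal, and loci of 2 protein-coding genes (lower row, r from 0.0119 to 0.0437) spread along both axes.

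The weaker partner of such deeply overlapping coding and noncoding loci had no fixed share of the stronger one. Where the stronger had at least 20 FPKM, the weaker had a median of 6.0% of it in leaf (63 loci), 3.89% in silique (49) and 8.49% in inflorescence (54). It was listed at 0 in 12, 9 and 10 of these loci, under 1% in 20, 17 and 17, and at 50% or more in 10, 6 and 8. Some of the loci with a partner at 0 held a tRNA gene nested in a protein-coding gene, as the APE2 locus did. The low end of the range is therefore not one of long noncoding RNA genes alone. How far fragments of the other strand contribute to the weaker row was not tested.

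The largest joint changes of these loci, between leaf and inflorescence and between silique and inflorescence, were at the nested AT4G04077 (noncoding) and AT4G04078, with 0.887 FPKM in leaf, 3.14 in silique and 88.6 in inflorescence for the first-series partner, and 0, 0 and 1264 FPKM for the second. That locus is 754 bp wide, and both rows were highest in inflorescence. At the locus of SHP2, a MADS-box gene of carpel and valve margin identity, and the noncoding AT2G42835 (chromosome 2, 17820255 to 17824842), the first-series partner had 0.117 FPKM in leaf, 68.1 in silique and 28.9 in inflorescence, and the second-series partner 0.0512, 27.04 and 16.9. For the locus of CYP98A8, a cytochrome P450 gene of pollen phenolamide synthesis, with the noncoding AT1G74545, the values were 0.975, 0.707 and 24.6 FPKM for the first and 1.63, 0.621 and 91.4 FPKM for the second partner. The SHP2 locus was high on both rows in silique and in inflorescence, and the CYP98A8 locus in inflorescence alone.

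The locus of LAC17, a laccase gene of lignin formation, with the noncoding AT5G60022, had 4.63 FPKM in leaf, 73.8 in silique and 24.9 in inflorescence for the first-series partner, and 1.49, 12.8 and 4.62 FPKM for the second. The locus of CDA1, a cytidine deaminase gene, with AT2G19572, had 29.4, 215 and 40.7 FPKM for the first and 1.44, 21.3 and 3.62 FPKM for the second partner. In both loci silique was highest on both rows, and the first-series partner was the higher one in every organ.

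Leaf was the high organ of other such loci. The locus of AT4G38550 and the noncoding AT4G38552 had 72.6 FPKM in leaf, 21.1 in silique and 4.46 in inflorescence for the first-series partner, and 51.9, 22.2 and 6.83 FPKM for the second. The locus of AST56, a sulfate transporter gene, with AT1G77992, had 36.8, 2.99 and 4.98 FPKM for the first and 46.4, 5.79 and 7.74 FPKM for the second partner. The locus of PnsB4, a subunit gene of the chloroplast NDH complex, with AT1G18735, had 374, 90.9 and 59.7 FPKM for the first and 8.17, 0 and 1.06 FPKM for the second. The partners of the first pair of loci lay within 2-fold of each other in every organ, whereas those of the PnsB4 locus lay far apart.

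Joint changes were also seen at some loci of 2 protein-coding genes and of 1 gene. The locus of ORS1, a gene of organ growth, and AT2G41231 had 0.269 FPKM in leaf, 40.6 in silique and 15.5 in inflorescence for the first-series partner, and 0.186, 36.05 and 9.11 FPKM for the second. The locus of MYB21, a transcription factor gene of stamens and petals, with AT3G27809 nested in it, had 0.356, 0.487 and 94.1 FPKM for the first, and 0, 0 and 5.54 FPKM for the second partner. Both loci were high on both rows in the same organs.

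Among loci holding a single reference gene, 9 of 30 changed jointly and 3 oppositely in some organ pair. The locus of AT3G11110 (705 bp wide) had 57.5 FPKM in leaf, 8.51 in silique and 1.94 in inflorescence for the first-series partner, and 63.9, 15.1 and 2.004 FPKM for the second. The locus of AT3G51642 had 0, 18.0 and 0.157 FPKM for the first and 0, 1054 and 0 FPKM for the second partner. These loci are short, and a short transcript takes a large FPKM from few fragments.

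Gene content also went with dominance. Of loci that were not low, a partner dominated at loci of 2 protein-coding genes in 56.2% in leaf, 47.6% in silique and 44.4% in inflorescence. At loci with a noncoding RNA gene the shares were 62.5%, 61.3% and 57.7%, and at loci with a pseudogene 85.7%, 76.7% and 68.8%. Both partners reached 1 FPKM in 63.7%, 75.1% and 75.9% of the loci of 2 protein-coding genes, in 49.3%, 45.8% and 48.3% of those with a noncoding gene, and in 21.2%, 25% and 21.2% of those with a pseudogene. Loci with a noncoding gene were narrower, with a median of 2486 bp against 4426.5 bp.

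Of 4 natural antisense pairs described in the literature, 3 were members. At the locus of SRO5 and ALDH12A1 (chromosome 5, 25097998 to 25103298), the first-series partner had 0.334 FPKM in leaf, 13.9 in silique and 2.74 in inflorescence, and the second-series partner 32.6, 40.9 and 31.2. The second partner dominated in leaf and inflorescence, and silique was balanced. The partners at the locus of AT4G35850, a pentatricopeptide repeat gene, and GB2, a small GTPase gene, were balanced in all organs, with 17.7 and 47.7 FPKM in leaf, 30.8 and 59.1 in silique, and 27.6 and 46.4 in inflorescence.

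At the locus of CDF5 (AT1G69570), a DOF factor gene of flowering time control, and FLORE (AT1G69572), its noncoding partner, the first-series partner had 26.2 FPKM in leaf, 18.3 in silique and 15.1 in inflorescence, and the second-series partner 2.62, 3.43 and 1.51. The first partner dominated in each of the 3 organs. The remaining pair, AT5G63720 and AT5G63730, was listed as separate rows and was not a member.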

How the data were processed

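Per the submitters' processing notes, reads were aligned with TopHat and the build is TAIR10. The authors deposited FPKM, 1 table for each of 3 libraries, per the file headers; the sources used here do not name the quantifier or the annotation, or state the depth and the use of strand in counting. The loci, gene lists and rules were chosen with earlier results of these data known, and the split by gene content after values were seen. Starts were counted from 1, since 39.1% of starts of rows alone then equalled a start in the TAIR10.1 gene table, against 0.465% as given. Partners could not be named singly, and the planned strand assignment, noncoding-partner ranking and promoter motif search were not made, since the reference used here gives no strand or sequence.

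Ratios are log2((FPKM + 1)/(FPKM + 1)), which understates ratios of low rows. With 1 library per organ no test was made. Named loci were, by rule, the 10 largest switches at loci of 2 genes, the 3 highest loci per organ, up to 3 joint and opposite changes per organ pair and direction, the 5 highest balanced loci and 4 literature pairs; not all are printed. The counting steps were tested on simulated data. Python 3.11.15, pandas 2.3.3 and numpy 2.4.6 were used.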

Additional observations from a re-analysis of the deposited data

Results flagged for a closer look

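Of the 22 loci of exactly 2 reference genes at which opposite partners dominated in different organs, the 10 with the largest switch are given here. Each organ is 1 library, and the difference between organs was not tested at any of them. The size of a switch is given as the smaller of the opposing log2 ratios of FPKM + 1. It was 3.34 at LCR60 with AT2G20210 (XLOC_009643 and XLOC_012392), 3.31 at BAM6 with AT2G32280 (XLOC_010349 and XLOC_013135) and 3.20 at RLP34 with AT3G11000 (XLOC_014579 and XLOC_017986). It was 3.15 at IMD1 with AT5G14210 (XLOC_026702 and XLOC_030513), 2.93 at AT1G65080 with AT1G65090 (XLOC_003430 and XLOC_007580) and 2.90 at TIP3;1 with AT1G73200 (XLOC_003902 and XLOC_008029). It was 2.76 at scpl46 with AT2G33520 (XLOC_010420 and XLOC_013204), 2.69 at VAMP725 with RLP23 (XLOC_010372 and XLOC_013153), 2.69 at AT1G05510 with AT1G05520 (XLOC_000249 and XLOC_004585) and 2.497 at WAK2 with AT1G21280 (XLOC_001166 and XLOC_005477). The call of a switch was lost with a pseudocount of 5 at LCR60 (1.53), AT1G65080 (1.36), VAMP725 (1.15) and WAK2 (1.38). A minimum of 20 FPKM ended it at LCR60, AT1G65080, VAMP725, AT1G05510 and WAK2. At 8-fold it was lost at AT1G65080, TIP3;1, scpl46, VAMP725, AT1G05510 and WAK2. The switches at BAM6, RLP34 and IMD1 kept their call under these 3 settings.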

How the results depend on the processing

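No paired analysis was possible because each organ has 1 library, and for the same reason no replicate could be left out. Of 111 alternative values of the main counts, 64 stayed within 1.5 times the value reported and 47 did not. A pseudocount of 0.1, a minimum of 1 FPKM or none, a scaling of the libraries by their median ratio and loci with both partners above 0 moved none of them that far. That scaling shifts log2 ratios of all rows by -0.16 between leaf and inflorescence, -0.07 between silique and inflorescence and -0.10 between leaf and silique.

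The counts below run in this order: dominated loci in leaf, silique and inflorescence, switches, loci with a changed partner ratio, changed rows by organ pair (leaf and inflorescence, silique and inflorescence, leaf and silique), joint changes, opposite changes. The values reported above were 1027, 933, 871, 29, 518, 492, 255, 400, 45 and 26. With a pseudocount of 5 they were 670, 578, 512, 10, 332, 259, 130, 205, 17 and 9. At 2-fold, those that moved were 1326 dominated loci in inflorescence, 104 switches, 1061 changed ratios, 1043, 593 and 1047 changed rows, 158 joint and 117 opposite changes. At 8-fold they were 587 and 539 dominated loci in silique and inflorescence, 6 switches, 265 ratios, 197, 126 and 187 rows, 12 joint and 4 opposite changes. With a minimum of 20 FPKM they were 573 dominated loci in inflorescence, 13 switches, 295 ratios, 319, 155 and 246 rows, 20 joint and 11 opposite changes. Over the 1288 loci of exactly 2 reference genes alone, fewer loci by construction, they were 601, 541 and 512 dominated loci, 296 ratios, 304, 159 and 242 rows, 28 joint and 15 opposite changes. With a detection floor of 5 FPKM, both partners were detected in 862 loci in leaf, 978 in silique and 987 in inflorescence.

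Of the changed rows, the share higher in leaf was 45.7% against inflorescence and 36.5% against silique. Against inflorescence the majority turned, with 57.4% at a minimum of 20 FPKM, 55.0% at 2-fold and 54.4% with a pseudocount of 5, and against silique it turned at 2-fold, with 52.1%. At 8-fold the shares were 31.0% and 20.3%. The cause of these shifts was not tested. The unknown depth and the lack of replicates limit every count, most of all for rows near 1 FPKM.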
